A study of Mus musculus with 12 samples.

Results

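Ribosome biogenesis factors are the proteins that make and assemble ribosomes in the nucleolus, and their transcript levels were followed here in mouse dendritic cells (DC) before and after exposure to poly(I:C), which mimics viral double-stranded RNA and matures DC. A list of 55 genes was used, and members were the probe sets whose annotation names 1 gene and that gene is on the list. This gave 115 probe sets for 54 genes, out of 18193 genes that 34945 of the array's 45037 probe sets name singly. The remaining listed gene, Mrto4, has no probe set of its own, because its single probe set also names other genes. Of the 115 probe sets, 104 were bright enough to be tested and 11 were not, and all 54 genes kept at least 1 tested probe set. The brightest tested probe set stands for its gene unless another is named. The genes fall into RNA polymerase I (5 genes), general nucleolar factors (4), small nucleolar ribonucleoprotein (snoRNP) proteins (8), small subunit processing (20) and large subunit processing (17).

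There are 12 Affymetrix Mouse 430 2.0 arrays, 1 at each of 0, 1, 3, 6, 12 and 24 h in each of 2 experiments. All cells came from C57BL/6 bone marrow grown with GM-CSF for 6 days, and per the study's methods they were then selected for CD11c and each experiment used 1 mouse, so n = 2 at every time. The labels give 10 ng/ml GM-CSF and 2.5 ug/ml poly(I:C), the study's methods give other doses, and the labels give the age both as 8-10 weeks and as 3-4 months. None of these arrays holds untreated cells after 0 h, so the effect of poly(I:C) cannot be told apart from that of time in culture. Values are MAS5.0 signals (probe set intensities, in arbitrary units). The median signal ranged from 70.9 to 91.4 across arrays, and precision is limited by having 2 arrays per time.

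The 7 DC markers on the list used as a check all reached the brightness needed for testing. Their signals ranged widely, with Ciita between 151 and 565 and Itgax, which encodes CD11c, between 16176 and 24684. The 5 macrophage markers measured reached it too, among them Csf1r at 22071 to 32347. At most 2 genes of each list for neutrophil precursors, T cells, B cells, NK cells, erythroid, stromal and mast cells did so.

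A ribosome starts as a long precursor ribosomal RNA (rRNA) that RNA polymerase I transcribes in the nucleolus. SnoRNPs guide chemical modification of the precursor, with box C/D particles adding methyl groups and box H/ACA particles making pseudouridine, and separate sets of processing factors cut, fold and export the small and the large subunit. Growing and dividing cells need many new ribosomes, and the genes for these factors are known targets of the transcription factor MYC, which binds the E-box CACGTG.

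The promoters of 3 members called lower at 12 h are shown because they differ in 2 short motifs, the E-box CACGTG and the ETS factor core CCGGAAG. Each holds 250 bases before and 50 after the RefSeq start site on GRCm38.p6, 5′ to 3′ on the gene's strand, and capitals mark the motifs on either strand, where CACGTG reads the same on both strands and CCGGAAG reads CTTCCGG on the other. Polr1e lies at chr4:45018359-45018658 on the plus strand, Nop58 at chr1:59684756-59685055 on the plus strand and Tsr1 at chr11:74897830-74898129 on the plus strand.
Polr1e: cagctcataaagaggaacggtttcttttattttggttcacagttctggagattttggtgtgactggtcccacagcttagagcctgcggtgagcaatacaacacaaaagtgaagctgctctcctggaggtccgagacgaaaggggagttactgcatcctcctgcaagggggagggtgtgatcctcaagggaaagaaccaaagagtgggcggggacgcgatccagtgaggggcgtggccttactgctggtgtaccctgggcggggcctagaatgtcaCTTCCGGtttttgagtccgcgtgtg
Nop58: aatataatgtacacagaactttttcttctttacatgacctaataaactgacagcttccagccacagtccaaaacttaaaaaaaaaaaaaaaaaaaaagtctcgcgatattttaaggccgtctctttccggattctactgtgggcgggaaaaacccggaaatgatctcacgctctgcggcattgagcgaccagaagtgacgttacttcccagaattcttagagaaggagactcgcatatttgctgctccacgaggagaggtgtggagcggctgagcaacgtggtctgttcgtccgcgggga
Tsr1: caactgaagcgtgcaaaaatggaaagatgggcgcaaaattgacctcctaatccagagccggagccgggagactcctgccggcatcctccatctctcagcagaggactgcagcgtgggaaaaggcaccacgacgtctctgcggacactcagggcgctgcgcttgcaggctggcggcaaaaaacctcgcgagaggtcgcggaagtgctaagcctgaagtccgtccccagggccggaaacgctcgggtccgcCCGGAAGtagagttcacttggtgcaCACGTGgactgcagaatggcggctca

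Polr1e holds CCGGAAG alone, Nop58 neither motif and Tsr1 both. Of the 55 listed genes 48 have a promoter in the RefSeq table, and 7 of them (14.6%) hold CACGTG, against 11.9% of the 8978 tested genes with a promoter and 8.09% of all 27025 genes with one. CCGGAAG, which was searched for after the promoters had been read, is in 19 of the 48 (39.6%), against 20.7% of tested genes and 9.93% of all genes. Both motifs together are in 3 of the 48 (6.25%), against 2.56% of tested genes. The fall at 12 h was of similar size with and without a motif as a description, with a median log2 difference from 0 h of -1.48 in the 7 measured genes that hold CACGTG and -1.63 in the 40 that do not, and of -1.54 in 19 genes with CCGGAAG and -1.64 in 28 without it.

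By the median over all members, transcripts of ribosome biogenesis factors were slightly lower at 3 h and fell further by 6 h. They were lowest at 12 h and stood somewhat higher again at 24 h. The median log2 difference from 0 h over the 54 genes was 0.03 at 1 h, -0.20 at 3 h, -0.81 at 6 h, -1.60 at 12 h and -1.25 at 24 h. The median fall at 12 h was 3.02-fold, and no gene of the 54 had a fitted level above 0 h at 12 h. Of all 10985 genes tested, 62.3% had a fitted level below 0 h at 12 h. Differences are on the scale of log2(signal + 16), which understates changes of dim probe sets. In bulk RNA, fewer cells that express a gene and less RNA per cell cannot be told apart.

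Each time was set against 0 h with limma, a linear model fitted across all tested probe sets with the experiment as a block. A gene was called at a Benjamini-Hochberg adjusted p under 0.05. The spread of a probe set was estimated once over all 12 arrays. The standard error (SE) of a gene was therefore the same at every time, and does not measure how far apart the experiments were at 24 h. At 12 h, 50 of the 54 genes were lower than at 0 h and 0 were higher, where 20.6% of all 10985 genes tested were lower and 10.7% higher. At 24 h, 42 were lower and 0 higher, against 17.2% and 11.5% of all genes. At 6 h, 15 were lower and 0 higher, against 2.32% and 4.29%. At 3 h, 0 of the 54 were lower or higher by limma, against 0.0546% and 1.26% of all genes, and 2 of them (Polr1b and Wdr12) had an unadjusted p under 0.05, both lower. At that unadjusted level, 693 of all 22519 probe sets tested were lower and 967 higher. At 1 h, 0 were called in either direction, against 0.0% and 0.0819%, and 0 had an unadjusted p under 0.05. The 6 h count depended on single arrays: it was 2 without the 6 h array of experiment 1, 3 without either 0 h array, 9 without the 6 h array of experiment 2, 33 without either 24 h array, and 3 without the replicate block. The 24 h count was 27 without the 0 h array of experiment 2, and the 12 h count was 38 to 51 with each array left out in turn.

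The fall of the members went beyond the shift of the whole array. The median over all genes tested was -0.06 at 3 h, -0.15 at 6 h, -0.20 at 12 h and -0.13 at 24 h, and the median over the tested probe sets moved by -0.31 at 12 h and -0.24 at 24 h. After each array was centred on that median, the members' median difference was -0.66 at 6 h, -1.29 at 12 h and -1.01 at 24 h, with 10 genes lower at 6 h, 42 at 12 h and 37 at 24 h, and 0 higher at any of these times. Over all genes tested, centring changed the split from 2263 lower and 1171 higher to 1191 and 1779 at 12 h, from 1887 and 1259 to 1226 and 1900 at 24 h, and from 255 and 471 to 140 and 581 at 6 h.

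**Figure D1:**
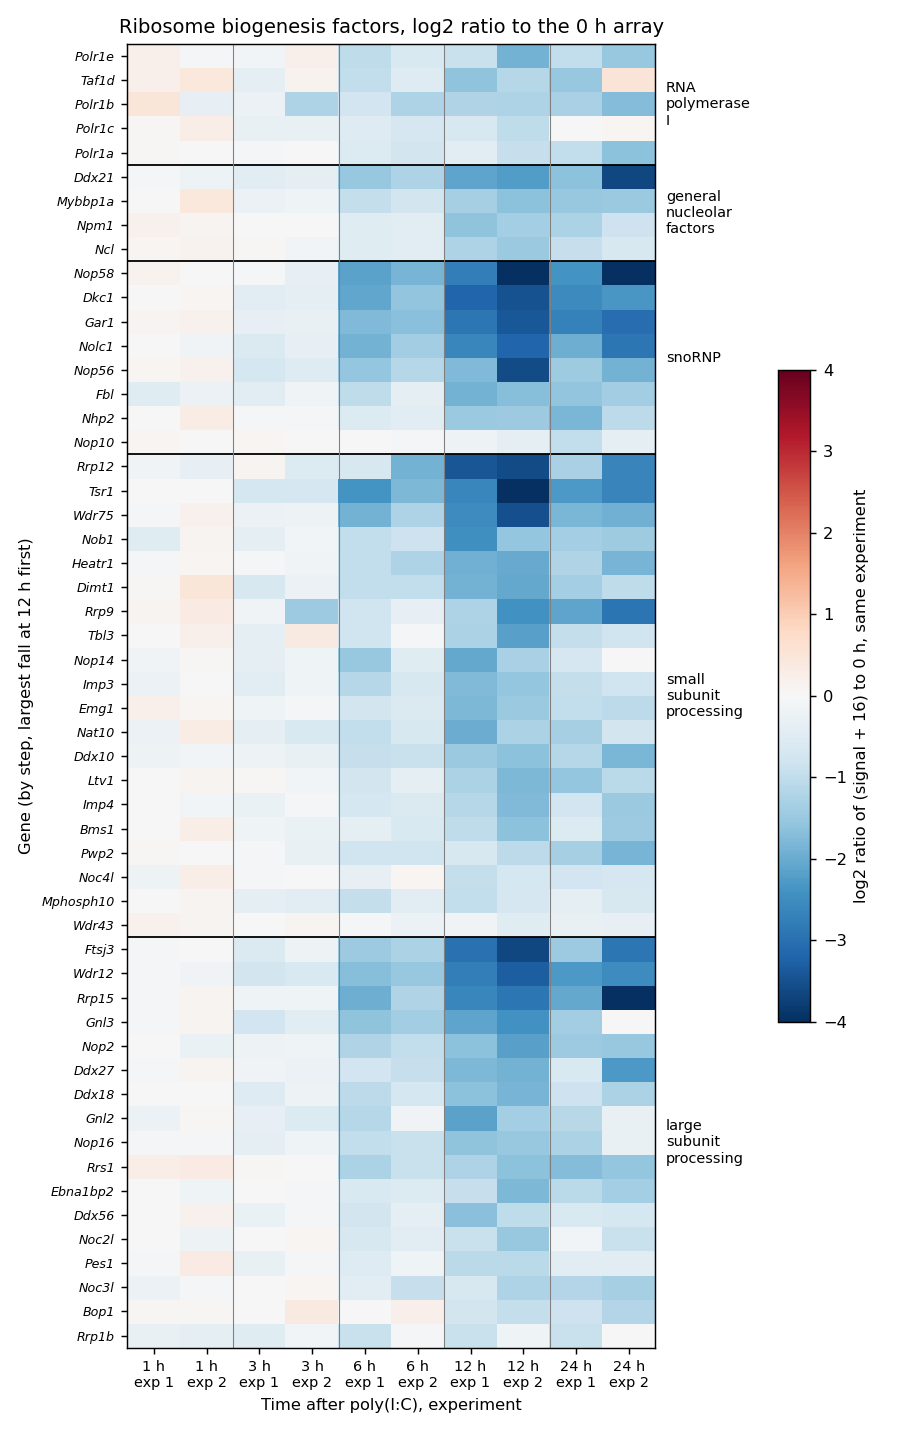
Log2 ratio of (signal + 16) on each array to its experiment's 0 h array for the 54 genes (rows, by step, largest fall at 12 h first), with 1 column per time and experiment and blue for lower, the colours ending at -4 and 4. Columns at 1 and 3 h are pale apart from Polr1b and Rrp9 at 3 h in experiment 2, and at 12 h all 54 genes lie below 0 in both experiments.

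The 2 experiments followed similar courses. In experiment 1 the median log2 ratio to its own 0 h array was -0.95 at 6 h, -1.61 at 12 h and -1.27 at 24 h, and in experiment 2 it was -0.68, -1.64 and -1.37. All 54 genes were below their 0 h array at 12 h in each experiment, and 41 of them in experiment 1 and 47 in experiment 2 were at least 2-fold lower on the log2(signal + 16) scale. The shares of all genes that did so in each experiment were not computed. Both arrays lay below both 0 h arrays for 29 genes at 3 h, 51 at 6 h, 53 at 12 h and 50 at 24 h, where 22.8%, 34.2%, 39.9% and 31.4% of all genes tested did so. Both arrays lay above both 0 h arrays for 10 genes at 1 h, 2 at 3 h and 0 at the later times, against 9.25%, 13.4%, 16.1%, 20.3% and 21.7% of all genes from 1 to 24 h, and both 1 h arrays lay below both 0 h arrays for 7 members, against 12.8% of all genes. The single gene whose 12 h arrays overlapped the 0 h arrays was Polr1a. The lowest mean level was at 12 h for 42 genes and at 24 h for 12, and the highest was at 0 h for 18, at 1 h for 33 and at 3 h for 3. These times were not counted over all genes tested, whose median difference from 0 h was also lowest at 12 h (-0.20).

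Between neighbouring times few genes passed the test. From 1 to 3 h, 0 members were called by limma (0.0637% of all genes were lower and 1.0% higher), and 5 had an unadjusted p under 0.05. At that unadjusted level, 694 of all 22519 probe sets tested were lower and 959 higher. From 3 to 6 h, 3 members were called lower, the H/ACA proteins Dkc1 and Gar1 and the large subunit factor Rrs1, and 0 higher, against 0.109% and 0.674% of all genes. Their log2 differences over that interval were -1.43 (SE 0.25) for Dkc1, -1.39 (SE 0.22) for Gar1 and -1.12 (SE 0.20) for Rrs1. From 6 to 12 h, 11 were called lower and 0 higher, against 1.4% and 0.792% of all genes. They were Ncl, Npm1, Fbl, Dkc1, Gar1, Nhp2, Rrp12, Emg1, Bop1, Wdr12 and Ftsj3, with log2 differences between -2.25 (Rrp12) and -0.89 (Ncl). These calls depended on the settings. With no replicate block or no trend, limma called 0 members lower in either interval, and over all genes with no block it called 0. With each array left out in turn, members lower numbered 0 to 11 from 3 to 6 h and 0 to 36 from 6 to 12 h. The count from 3 to 6 h was 0 when any 1 array of 0, 3 or 6 h was left out, 1 when either 1 h array was, 3 when either 12 h array was and 11 when either 24 h array was. From 6 to 12 h it was 0 when any 1 array of 3 or 6 h or the 12 h array of experiment 2 was left out, 2 when any 1 array of 0 or 1 h was, 7 when the 12 h array of experiment 1 was and 36 when either 24 h array was. From 6 to 12 h, 7 were lower with no filter and 7 after median centring. Fits of 4 arrays called 36 and 28 lower, and the fit without the 1 h arrays, chosen after seeing the data, called 0 in either interval. At an unadjusted p under 0.05 by limma, 30 members differed from 3 to 6 h and 41 from 6 to 12 h. Of all 22519 probe sets tested, 1179 were lower and 1034 higher at that level from 3 to 6 h. From 6 to 12 h it was 2521 and 1269.

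**Figure D2:**
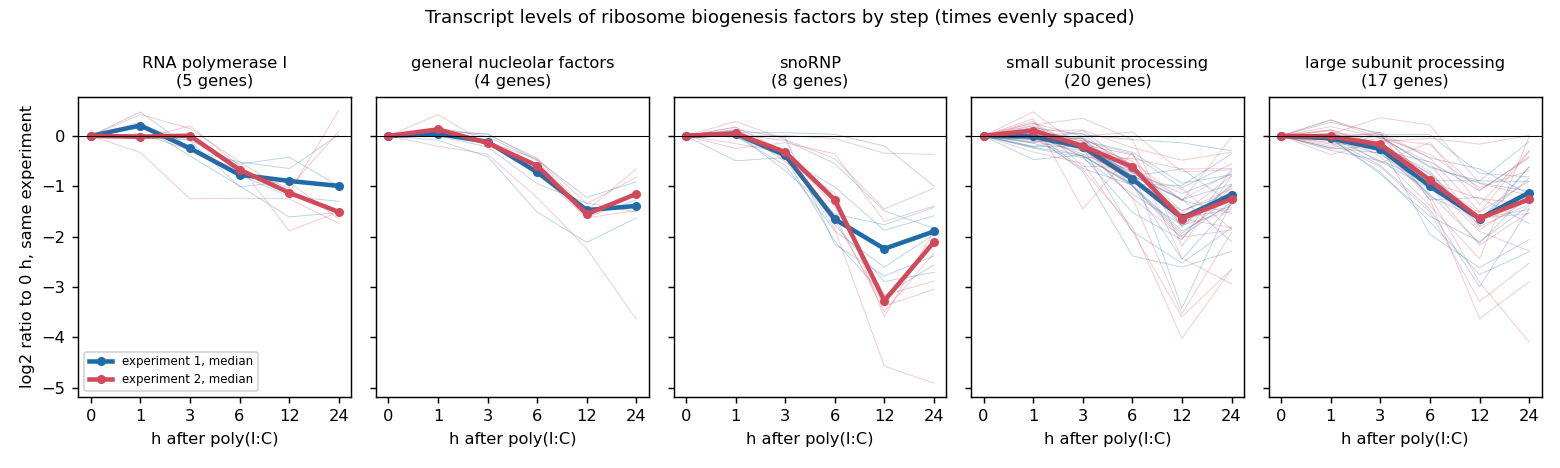
Log2 ratio to the experiment's own 0 h array (vertical axis) at each time (horizontal axis, evenly spaced), 1 panel per step, with thin lines for single genes and thick lines for the median in experiment 1 (blue) and experiment 2 (red). The snoRNP medians reach -2.24 and -3.27 at 12 h, while those of the other steps lie between -0.89 and -1.64.

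By step, the median log2 difference at 12 h was -1.22 for RNA polymerase I, -1.48 for the general nucleolar factors, -2.78 for snoRNP proteins, -1.65 for small subunit processing and -1.57 for large subunit processing, and whether these medians differ was not tested. At 12 h, 4 of 5, 4 of 4, 7 of 8, 19 of 20 and 16 of 17 genes were lower in that order. At 24 h, 3 of 5, 4 of 4, 8 of 8, 16 of 20 and 11 of 17 were lower, with medians of -1.25, -1.27, -2.04, -1.15 and -1.05. At 6 h, 0, 1, 3, 6 and 5 genes were lower, with medians of -0.75, -0.65, -1.49, -0.80 and -0.84.

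Signals by array are listed in time order, for 0, 1, 3, 6, 12 and 24 h. RNA polymerase I genes had the smallest median fall of the steps at 12 h. Polr1e, a subunit of the enzyme, had signals of 324, 376, 302, 152, 167 and 156 in experiment 1 and 326, 311, 376, 210, 76.7 and 104 in experiment 2. From 6 h on both arrays lay below both 0 h arrays, and the log2 difference was -1.39 (SE 0.34, adjusted p = 0.0132 by limma) at 12 h and -1.25 (SE 0.34, adjusted p = 0.0223) at 24 h. The 12 h call was lost without either 0 h array (-1.50 and -1.28) or without the 12 h array of experiment 2 (-0.90), and the 24 h call without either 0 h array (-1.35 and -1.14) or without the 24 h array of experiment 2 (-1.04). The probe sets of Polr1e, Taf1d and Rrs1 are of the kind whose names mark a possible match to other sequences, and those of Polr1c, Nop56, Gar1, Nhp2, Bms1 and Tsr1 of the kind whose names mark a match shared by several transcripts.

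Taf1d, part of the factor that recruits RNA polymerase I to the rRNA promoter, had signals of 517, 601, 389, 252, 159 and 170 in experiment 1 and 338, 459, 376, 232, 146 and 487 in experiment 2. The 2 experiments were close at 12 h and far apart at 24 h, where experiment 2 was above its own 0 h array. Taf1d was lower at 12 h by -1.37 (SE 0.41, adjusted p = 0.030 by limma), a call lost without any 1 of the 0 h and 12 h arrays (lowest difference -1.74, highest -0.99), and its difference at 24 h was -0.51 (SE 0.41, adjusted p = 0.395). Its probe sets gave different calls at 24 h. Of the 5 dimmer ones tested, 1 was lower by -1.80 at 12 h (adjusted p = 0.000964 by limma) and by -1.66 at 24 h (adjusted p = 0.00162). Another was lower by -2.24 at 12 h (adjusted p = 0.00774 by limma) and by -1.97 at 24 h (adjusted p = 0.0147), and the other 3 were not called at either time.

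Polr1b, a large catalytic subunit, had signals of 205, 292, 171, 114, 80.4 and 74.1 in experiment 1 and 280, 219, 109, 109, 108 and 72.8 in experiment 2. It was lower at 12 h by -1.22 (SE 0.33, adjusted p = 0.0196 by limma) and at 24 h by -1.52 (SE 0.33, adjusted p = 0.00755). Without the 0 h array of experiment 2 the differences were -0.95 (adjusted p = 0.180) and -1.24 (adjusted p = 0.0974), while leaving out the 12 h array of experiment 1 gave -0.98 at 12 h (adjusted p = 0.132).

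Polr1c, a subunit shared with RNA polymerase III, fell and was back at its starting level by 24 h. Its signals were 1058, 1088, 867, 734, 670 and 1074 in experiment 1 and 1087, 1317, 876, 677, 524 and 1154 in experiment 2. The 12 h difference from 0 h was -0.84 (SE 0.19, adjusted p = 0.00964 by limma) and the 24 h difference 0.05 (SE 0.19, adjusted p = 0.869). The 12 h call was lost without either 0 h array (-0.86 and -0.81) or without the 12 h array of experiment 2 (-0.63). Polr1a, the largest subunit, was not called at 12 h, with -0.67 (SE 0.25, adjusted p = 0.0686), and was lower at 24 h by -1.32 (SE 0.25, adjusted p = 0.00374). Leaving out either 24 h array brought Polr1a under the threshold at 12 h at the same difference (adjusted p = 0.023 and 0.0214).

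The 4 general nucleolar factors all fell. Ddx21, an RNA helicase that links rRNA transcription and processing, had signals of 1019, 959, 762, 347, 223 and 319 in experiment 1 and 1006, 872, 779, 422, 201 and 65.9 in experiment 2. The log2 difference was -2.17 (SE 0.45, adjusted p = 0.00613 by limma) at 12 h and -2.63 (SE 0.45, adjusted p = 0.00236) at 24 h. At 24 h the experiments were far apart, with log2 ratios of -1.63 in experiment 1 and -3.64 in experiment 2. An SE shared by all times does not measure that distance. The 12 h call was lost without the 0 h array of experiment 2 (-1.98) or without the 12 h array of experiment 1 (-2.06). The other tested probe set of Ddx21 fell less, by -1.14 at 12 h (adjusted p = 0.00381 by limma) and -1.08 at 24 h (adjusted p = 0.00522).

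Npm1 (nucleophosmin) and Ncl (nucleolin), abundant proteins of the nucleolus, fell at high signals. Npm1 had 9331, 10436, 9234, 6637, 3044 and 3854 in experiment 1 and 9579, 10363, 9789, 7044, 3761 and 5417 in experiment 2. Its difference was -1.48 (SE 0.16, adjusted p = 0.000153 by limma) at 12 h and -1.05 (SE 0.16, adjusted p = 0.0012) at 24 h. Ncl had 6082, 6439, 6258, 4366, 2602 and 3227 in experiment 1 and 7058, 7805, 6494, 5148, 2517 and 4492 in experiment 2. Its difference was -1.35 (SE 0.16, adjusted p = 0.000263) at 12 h and -0.78 (SE 0.16, adjusted p = 0.00578) at 24 h. The 24 h call of Ncl was lost without the 0 h array of experiment 2 (-0.77, adjusted p = 0.052) and after median centring (-0.54).

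Mybbp1a, a nucleolar protein that works in rRNA processing, had signals of 2014, 2012, 1728, 1036, 790 and 698 in experiment 1 and 1769, 2377, 1580, 1061, 562 and 623 in experiment 2. All 6 arrays from 6 h on lay below both 0 h arrays. The difference was -1.48 (SE 0.20, adjusted p = 0.00051 by limma) at 12 h and -1.49 (SE 0.20, adjusted p = 0.000502) at 24 h.

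The snoRNP proteins had the largest median fall of the steps at 12 h, and the group also held the smallest fall of the 54 genes, that of Nop10. Nop58, a core protein of the box C/D particles, had signals of 429, 471, 419, 84.2, 48.8 and 69.4 in experiment 1 and 551, 546, 432, 142, 7.91 and 2.93 in experiment 2. At 6 h both arrays lay below both 0 h arrays, with a difference of -2.0 (SE 0.62, adjusted p = 0.0929 by limma) that was not called, and at 12 and 24 h experiment 2 was at signals below the 16 added before the log. Its difference was -3.67 (SE 0.62, adjusted p = 0.00194 by limma) at 12 h and -3.64 (SE 0.62, adjusted p = 0.0021) at 24 h, values that understate the ratio of the signals. Signals as low as those of experiment 2 at these times do not fix the size of the fall.

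Nop56, the partner of Nop58 in the same particles, had signals of 1411, 1475, 866, 472, 404 and 518 in experiment 1 and 1276, 1439, 889, 572, 91.2 and 333 in experiment 2. Both 3 h arrays already lay below both 0 h arrays. The difference was -2.68 (SE 0.44, adjusted p = 0.00172 by limma) at 12 h and -1.65 (SE 0.44, adjusted p = 0.0195) at 24 h. The 24 h call was lost without either 0 h array (-1.81 and -1.49) or without the 24 h array of experiment 2 (-1.53). Fbl (fibrillarin), the methyltransferase of these particles, was lower at 12 h by -1.79 (SE 0.18, adjusted p = 0.000109) and at 24 h by -1.49 (SE 0.18, adjusted p = 0.00034).

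Dkc1 (dyskerin), the pseudouridine synthase of the box H/ACA particles, had signals of 738, 729, 542, 161, 68.0 and 112 in experiment 1 and 548, 582, 419, 174, 34.2 and 96.5 in experiment 2. The difference was -1.83 (SE 0.25, adjusted p = 0.00181 by limma) at 6 h, -3.33 (SE 0.25, adjusted p = 1.35e-05), a 10.0-fold fall, at 12 h, and -2.44 (SE 0.25, adjusted p = 0.000127) at 24 h. Gar1, another H/ACA protein, moved alike, with signals of 1235, 1337, 978, 354, 153 and 176 in experiment 1 and 986, 1116, 795, 301, 80.6 and 105 in experiment 2. Its differences were -1.71 (SE 0.22, adjusted p = 0.00112) at 6 h, -3.13 (SE 0.22, adjusted p = 7.37e-06) at 12 h and -2.88 (SE 0.22, adjusted p = 1.56e-05) at 24 h. The groups at 6, 12 and 24 h did not overlap those at 0 h for either gene.

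Nolc1, a nucleolar chaperone of snoRNPs, had signals of 1040, 1033, 690, 270, 158 and 256 in experiment 1 and 905, 814, 715, 333, 86.7 and 109 in experiment 2. The difference was -2.88 (SE 0.32, adjusted p = 0.00017 by limma) at 12 h and -2.42 (SE 0.32, adjusted p = 0.000502) at 24 h. Its dimmer probe sets differed in course. That of them with the smaller fall at 12 h stood at -1.74 then and at -2.87 at 24 h, the other at -3.35 and -2.74.

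The 2 smaller H/ACA proteins differed from Dkc1 and Gar1 in size of change, a difference that was not tested. Nhp2 was lower at 12 h by -1.47 (SE 0.20, adjusted p = 0.000623 by limma). Nop10 was bright throughout, with signals of 4836, 5052, 5057, 4940, 4207 and 2417 in experiment 1 and 5562, 5633, 5595, 5358, 4378 and 4307 in experiment 2. It was not called at 12 h, at -0.27 (SE 0.19, adjusted p = 0.33), and was lower at 24 h by -0.68 (SE 0.19, adjusted p = 0.0264), a value that was -0.33 (adjusted p = 0.0659) without the 24 h array of experiment 1 and was also not called without either 0 h array (-0.65 and -0.71). After median centring its 12 h difference was 0.03.

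**Figure D3:**
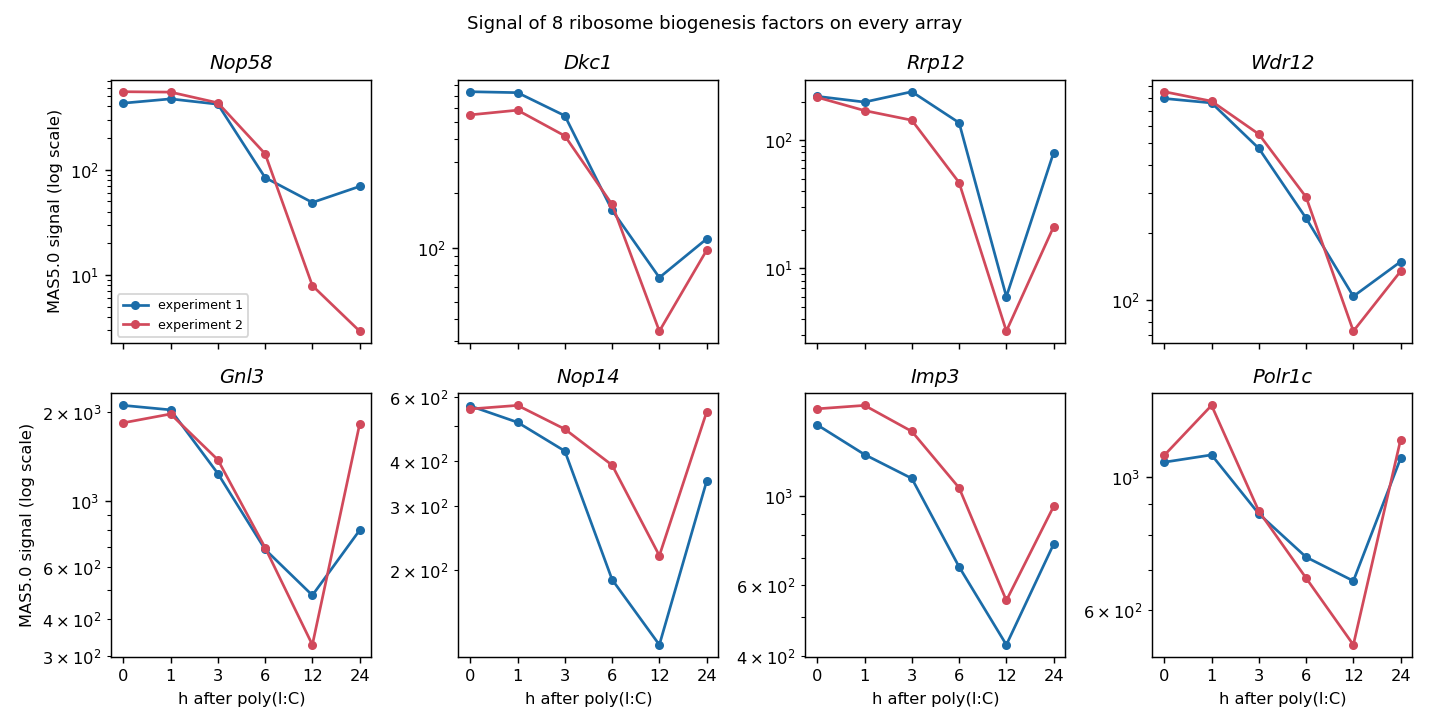
MAS5.0 signal (vertical axis, log scale, with its own range in each panel) of 8 genes at 0 to 24 h (horizontal axis, times evenly spaced) in experiment 1 (blue) and experiment 2 (red), 1 point per array. Nop58, Dkc1, Rrp12 and Wdr12 show deep falls at 12 h, and Gnl3, Nop14, Imp3 and Polr1c are the 4 genes called higher at 24 h than at 12 h.

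By the probe set that stands for each gene, 3 small subunit factors fell more than 8-fold at 12 h. Rrp12, which takes part in export of the early small subunit, had signals of 219, 198, 239, 137, 5.99 and 79.9 in experiment 1 and 216, 170, 143, 46.6, 3.22 and 21.1 in experiment 2. At 12 h both arrays were below the 16 added before the log, as were 21.6% and 22.0% of all probe sets on them. Signals this low do not fix the size of the fall. The difference was -3.51 (SE 0.44, adjusted p = 0.00036 by limma), which understates the ratio of signals. At 24 h it was -1.97 (SE 0.44, adjusted p = 0.00851), and -1.61 (adjusted p = 0.106) without the 0 h array of experiment 2.

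Tsr1, needed for late maturation of the small subunit, had signals of 2004, 2046, 1225, 372, 316 and 397 in experiment 1 and 1698, 1673, 1063, 472, 89.9 and 257 in experiment 2. Both arrays were below both 0 h arrays from 3 h on. The difference was -2.10 (SE 0.37, adjusted p = 0.00863 by limma) at 6 h, a call lost without either 0 h array (-2.22 and -1.97) or the 6 h array of experiment 1 (-1.63), -3.31 (SE 0.37, adjusted p = 0.000187) at 12 h and -2.47 (SE 0.37, adjusted p = 0.00109) at 24 h. Wdr75, which acts with RNA polymerase I at the earliest precursor, had signals of 1538, 1455, 1307, 402, 254 and 424 in experiment 1 and 959, 1078, 822, 402, 68.6 and 242 in experiment 2. Its difference was -3.03 (SE 0.32, adjusted p = 0.000147) at 12 h and -1.87 (SE 0.32, adjusted p = 0.00242) at 24 h. The other, dimmer probe sets of both genes gave smaller falls. That of Tsr1 was lower by -1.81 at 12 h (adjusted p = 0.0003 by limma). That of Wdr75 was not called at 12 h (-0.46, adjusted p = 0.558) or at 24 h (-1.47, adjusted p = 0.0641).

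Nob1, the nuclease that makes the final cut of the small subunit rRNA, had signals of 540, 386, 412, 267, 86.1 and 201 in experiment 1 and 424, 461, 393, 234, 134 and 149 in experiment 2. It was lower by -2.0 (SE 0.27, adjusted p = 0.000616 by limma) at 12 h and by -1.39 (SE 0.27, adjusted p = 0.00481) at 24 h, the latter -1.20 (adjusted p = 0.0588) without the 0 h array of experiment 1. Heatr1, which binds the precursor early, as Wdr75 does, had signals of 1400, 1327, 1353, 698, 354 and 600 in experiment 1 and 1407, 1478, 1266, 589, 337 and 374 in experiment 2. The 2 experiments were close at every time up to 12 h, and the difference was -1.97 (SE 0.22, adjusted p = 0.000165) at 12 h and -1.53 (SE 0.22, adjusted p = 0.000775) at 24 h.

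The other 15 small subunit genes had 12 h differences between -1.96 (Dimt1, an rRNA methyltransferase) and -0.31 (Wdr43), and 14 of them were called lower. Wdr43 was the exception, at -0.31 (SE 0.18, adjusted p = 0.223 by limma) with 0 h signals of 1063 and 1041 and 12 h signals of 965 and 740. Its other, dimmer probe set was lower at 12 h by -1.44 (adjusted p = 0.000861) and at 24 h by -1.64 (adjusted p = 0.000427), so the 2 probe sets disagree on whether this gene fell. Rrp9 and Pwp2 had lower levels at 24 h than at 12 h, with differences from 0 h of -1.84 (SE 0.45, adjusted p = 0.0132) and -0.85 (SE 0.24, adjusted p = 0.0224) at 12 h and of -2.52 (SE 0.45, adjusted p = 0.00292) and -1.59 (SE 0.24, adjusted p = 0.00102) at 24 h, and neither was called between those times (adjusted p = 0.42 and 0.106). The 12 h call of Rrp9 was lost without the 0 h or the 12 h array of experiment 2 (-1.58 and -1.39), and that of Pwp2 without any 1 of the 0 h and 12 h arrays (-0.97 to -0.73).

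The large subunit factors were led by Ftsj3, an rRNA methyltransferase, with signals of 890, 847, 587, 315, 97.5 and 318 in experiment 1 and 737, 730, 638, 298, 45.0 and 85.3 in experiment 2. Its difference was -3.31 (SE 0.39, adjusted p = 0.000255 by limma), a 9.93-fold fall, at 12 h and -2.17 (SE 0.39, adjusted p = 0.00296) at 24 h. The experiments were close at 6 h and differed most at 24 h.

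Wdr12, Pes1 and Bop1 form 1 complex that processes the large subunit rRNA, and all 3 were lower at 12 h, by unlike amounts. Wdr12 had signals of 792, 757, 475, 232, 104 and 148 in experiment 1 and 849, 770, 550, 288, 72.8 and 135 in experiment 2. It was lower at 6 h by -1.61 (SE 0.23, adjusted p = 0.00261 by limma), or -1.44 (adjusted p = 0.0624) without the 6 h array of experiment 1, at 12 h by -3.02 (SE 0.23, adjusted p = 1.64e-05) and at 24 h by -2.41 (SE 0.23, adjusted p = 8.66e-05). Pes1 was lower at 12 h by -1.08 (SE 0.19, adjusted p = 0.00231) and Bop1 by -0.84 (SE 0.21, adjusted p = 0.0127). At 24 h Bop1 was lower by -1.0 (SE 0.21, adjusted p = 0.00603), while Pes1 stood at -0.42 (SE 0.19, adjusted p = 0.122). The 12 h call of Bop1 was lost without either 0 h array (-0.85 and -0.84) or without the 12 h array of experiment 2 (-0.72), and its 24 h call without the 0 h array of experiment 2 (-0.99).

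Rrp15, a component of early large subunit precursors, had signals of 678, 660, 606, 163, 97.6 and 151 in experiment 1 and 560, 608, 494, 237, 60.9 and 17.8 in experiment 2. It was lower by -2.76 (SE 0.51, adjusted p = 0.00337 by limma) at 12 h and by -3.07 (SE 0.51, adjusted p = 0.00198) at 24 h, where experiment 2 was far below experiment 1. Nop2, which methylates the large subunit rRNA, had signals of 786, 788, 687, 332, 241 and 276 in experiment 1 and 748, 622, 658, 367, 154 and 251 in experiment 2. It was lower by -1.91 (SE 0.22, adjusted p = 0.000242) at 12 h and by -1.49 (SE 0.22, adjusted p = 0.00109) at 24 h.

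The other 12 large subunit genes, besides Ftsj3, Wdr12, Rrp15, Gnl3 and Nop2, had 12 h differences between -1.84 (Ddx27, an RNA helicase) and -0.53 (Rrp1b), and 11 were called lower. Rrp1b was not called at 12 h (SE 0.30, adjusted p = 0.218 by limma), with 0 h signals of 364 and 305 and 12 h signals of 189 and 271. Both of its other probe sets were lower at 12 h, by -1.92 (adjusted p = 0.0048) and -1.61 (adjusted p = 0.00352).

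Between 12 and 24 h, 4 of the 54 genes rose and 0 fell (limma), where 2.57% of all genes tested were higher and 2.21% lower. The median of the members over this interval was 0.43, with 42 of 54 genes above 0 and 12 below. For all genes tested the median was 0.07, with 43.8% of genes below 0. Over all genes tested, median centring changed the split from 243 lower and 282 higher to 314 and 216, and the members' median was then 0.36, with the same 4 genes called.

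Gnl3 (nucleostemin), a GTPase of the nucleolus, rose by 1.57 (SE 0.33, adjusted p = 0.0321 by limma) from 12 to 24 h. Its signals were 2111, 2039, 1242, 688, 481 and 799 in experiment 1 and 1843, 1974, 1382, 697, 327 and 1825 in experiment 2. The experiments were close during the fall and far apart at 24 h, where experiment 2 was back near its 0 h signal and experiment 1 was not. The difference from 0 h was -2.27 (SE 0.33, adjusted p = 0.00082) at 12 h and -0.70 (SE 0.33, adjusted p = 0.142) at 24 h.

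Nop14, which assembles the early small subunit precursor, rose by 1.33 (SE 0.27, adjusted p = 0.0299 by limma) from 12 to 24 h. Its signals were 568, 511, 426, 188, 124 and 351 in experiment 1 and 557, 570, 490, 389, 219 and 546 in experiment 2. Imp3, which joins the box C/D particle that binds the small subunit precursor, rose by 0.78 (SE 0.18, adjusted p = 0.0415), with signals of 1497, 1264, 1103, 666, 427 and 758 in experiment 1 and 1641, 1673, 1442, 1045, 550 and 940 in experiment 2. In both genes every 24 h array lay above both 12 h arrays and below both 0 h arrays. Polr1c, described above, rose by 0.89 (SE 0.19, adjusted p = 0.0357).

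These 4 calls lay close to the threshold. Leaving out either 24 h array raised the calls in both directions over all genes tested. The number of members called higher at 24 h than at 12 h was 0 without either 1 h, 3 h or 12 h array, 1 without either 0 h or 6 h array, 12 when the 24 h array of experiment 1 was left out, and 13 when that of experiment 2 was.

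**Figure D4:**
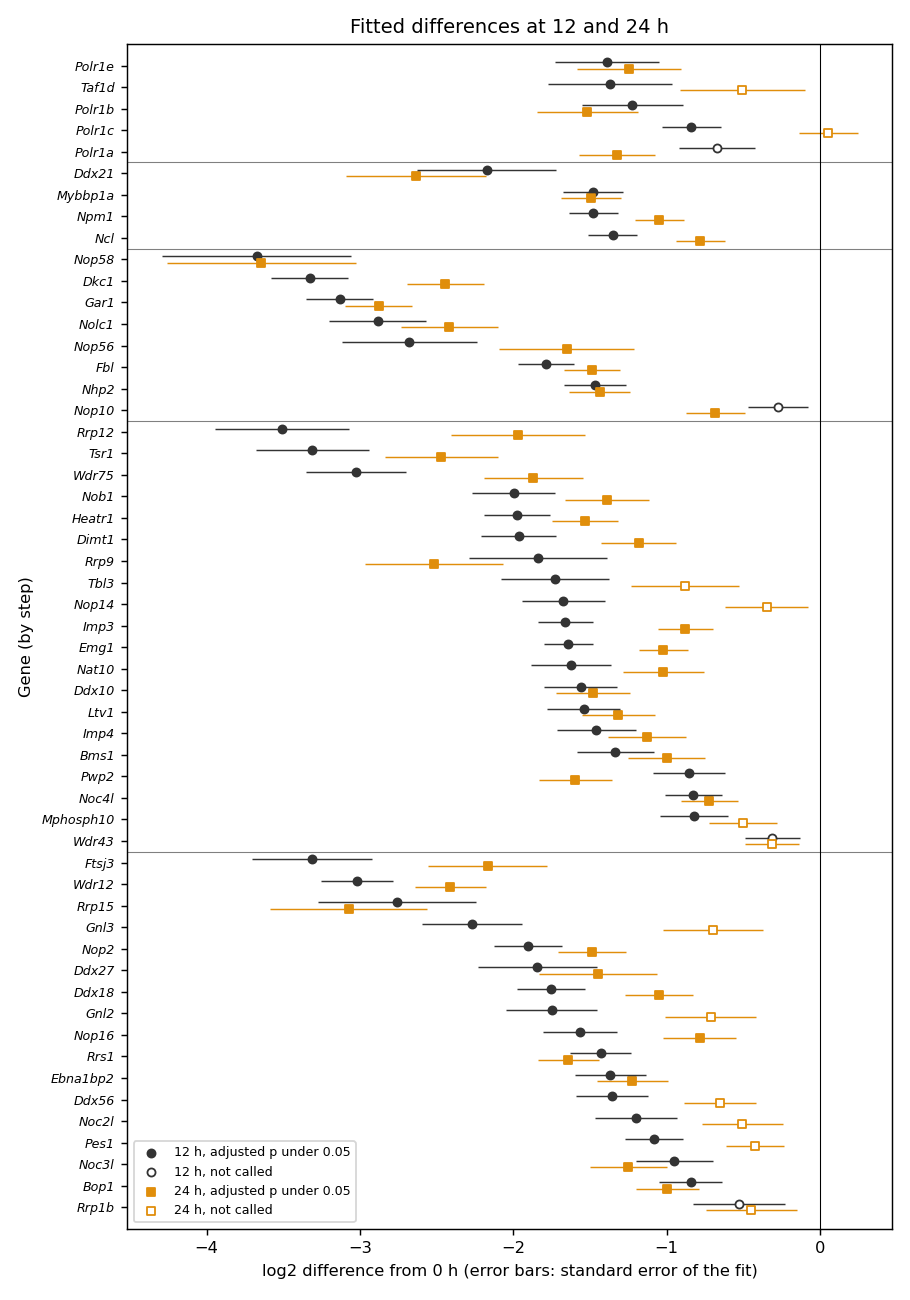
Fitted log2 difference from 0 h (horizontal axis) at 12 h (black circles) and 24 h (orange squares) for the 54 genes by step, with bars for the standard error of the fit, filled symbols for an adjusted p under 0.05 and open ones for no call. The 12 h symbol lies to the left of the 24 h symbol for 42 genes, and Polr1c at 24 h is the single value above 0.

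Of the 104 tested probe sets, 83 were lower at 12 h, 74 at 24 h and 24 at 6 h, and 0 were higher, against 18.7%, 17.5% and 1.95% of all probe sets tested being lower and 9.32%, 9.23% and 3.62% higher. From 12 to 24 h, 5 of the 104 were higher and 1 was lower, where 421 of all 22519 probe sets tested were higher and 507 lower. At least 1 probe set was lower at 12 h than at 0 h for 52 of the 54 genes. In 35 genes with several tested probe sets none had opposite calls, and at 12 h all probe sets were lower in 18 and some but not others in 15. The 2 probe sets with a 12 h value above 0 were dimmer ones of Ddx27 (0.13, adjusted p = 0.826 by limma) and Ebna1bp2 (0.93, adjusted p = 0.302).

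Another list holds further genes of the same pathway, and the 99 of them that were tested moved in the same direction by count. At 12 h 71 of the 99 were lower and 2 higher, with a median of -1.13, against 20.6% and 10.7% of all genes. At 24 h 51 were lower and 4 higher (median -0.67), against 17.2% and 11.5% of all genes. At 6 h 16 were lower and 1 higher (median -0.55), against 2.32% and 4.29%, and at 1 and 3 h 0 were called. The further RNA polymerase I genes had 7 of 11 lower at 12 h (median -0.57), the further snoRNP genes 6 of 7 (median -1.24), the small subunit genes 23 of 34 (median -1.13), the large subunit genes 26 of 35 with 2 higher (median -1.03), and the exosome and precursor nucleases 9 of 12 (median -1.23).

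The largest falls of that list at 12 h were Ppan, a large subunit factor, by -3.18 (SE 0.32, adjusted p = 0.000108 by limma), Wdr36, a small subunit factor, by -3.17 (SE 0.32, adjusted p = 0.000105), and Mdn1, the large ATPase that remodels large subunit precursors, by -3.04 (SE 0.62, adjusted p = 0.00549). The 2 rises were Tma16, a protein found on large subunit precursors, by 1.85 (SE 0.24, adjusted p = 0.000403), and Ddx24, an RNA helicase, by 0.76 (SE 0.17, adjusted p = 0.00904). Both stood higher still at 24 h, at 2.25 (SE 0.24, adjusted p = 0.00014) and 1.07 (SE 0.17, adjusted p = 0.00163).

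Markers of dividing cells fell over the same hours. Of 11 such genes tested, 7 were lower at 12 h (median -1.42) and 9 at 24 h (median -1.67), against 20.6% and 17.2% of all genes. Their summed signal in experiments 1 and 2 was 10251 and 12854 at 0 h, fell to 4093 and 6461 by 12 h, then to 2866 and 4925 by 24 h. From 12 to 24 h their median was -0.43 and 0 of 11 were called (limma), while the biogenesis factors' median was 0.43. Their part in the fall of the biogenesis factors was not tested. The summed signal of the 7 DC markers, which include Cd86 (933 to 13320 across arrays), went from 106868 and 80111 (0 h) to 137404 and 132072 (12 h). At 12 h 2 of the 7 were called higher and 0 lower (limma), against 10.7% and 20.6% of all genes. The sum of the 5 macrophage markers went from 38412 and 39715 (0 h) to 63406 and 49334 (12 h). Whether the share of any cell type changed was not tested.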

How the data were processed

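The 12 arrays hold total RNA, 1 array per time and experiment. The authors made the deposited intensity values with MAS5.0 and scaled each array to a mean of 500, taken with 2% trimmed at either end. Of 45101 probe sets, 64 are controls, 34945 name 1 gene, 932 name several and 9160 name none, and 34741 were named through the gene identifier while 204 kept an older symbol. Arrays give no read depth, so their number limits the precision.

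Log2(signal + 16) was fitted on all 12 arrays by time and experiment (R 4.3.3, limma 3.58.1), with empirical Bayes and an intensity trend (5 residual and 5.24 prior degrees of freedom). The 22519 probe sets with a mean signal of at least the median (78.4) were tested, and p was adjusted over all of them by Benjamini-Hochberg. The brightest tested probe set stands for each of 10985 genes. Tables and figures used Python 3.11.15, numpy 2.4.6, pandas 2.3.3 and matplotlib 3.10.9.

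The replicate number marks the experiment, and each experiment came from 1 mouse per the study's methods, so arrays were paired by it. As a check, the arrays of an experiment deviated together from the means of their times: for all 15 pairs of times r was 0.26 or more (median 0.57, highest 0.66), computed across probe sets, which are not independent. All times share the 0 h arrays.

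The members, lists and tests were chosen with earlier results of these data known. Values by array are given for up to 5 called genes per step with the largest change at 12 h and for every gene called between 12 and 24 h. Of the other pathway genes, the 3 largest falls and up to 3 largest rises among those called at 12 h are named. Other genes were named after their values were seen. Alternatives were other pseudocounts, filters, scalings and probe sets, no block, no trend, fits of 4 arrays, and each array left out. The fit was tested on simulated data for 12 h against 0 h over 22519 probe sets in 5 runs of 100 changed per size, and recovered 65.0% of 4-fold and 18.6% of 2-fold changes. Far more probe sets were called at 12 h in the real data (4205 lower and 2098 higher). The adjusted p depends on that number, so these shares do not give the recovery in the real data. Promoters are from RefSeq on GRCm38.p6.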

Additional observations from a re-analysis of the deposited data

How the results depend on the processing

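Of the members lower at 12 h, the count was 42 to 50 of 54 under other pseudocounts, no filter, other scalings, no replicate block, no trend, fits of 4 arrays and the most variable probe set, and 32 of the 34 genes left by a stricter filter, which tests fewer genes. Each array left out in turn gave 38 to 51. At 24 h the count was 27 with the stricter filter (34 genes tested), 25 with 4 arrays and 27 to 43 with each array left out. At 6 h it was 3 with no replicate block, 38 with 4 arrays, and 2 to 33 with each array left out. At 3 h it was 4 with 4 arrays, where 519 of all 10985 genes tested were lower. Between 12 and 24 h, members higher numbered 2 with no filter, 0 with no replicate block, no trend or 4 arrays, 0 without the 1 h arrays (chosen after seeing the data) and 0 to 13 with each array left out, and members lower numbered 0 to 4 (4 without the 24 h array of experiment 1, 1 without that of experiment 2). The cause of these differences was not tested. No setting called a member higher than at 0 h. Without the block 44 of the 50 calls at 12 h, 32 of 42 at 24 h and 3 of 15 at 6 h remained. The 12 h difference changed sign for Nop10 after median centring (0.033, adjusted p = 0.933 by limma) and for Ebna1bp2 with its most variable probe set (0.93, adjusted p = 0.302). A left-out array leaves 1 array at its time, which is assumed to vary like the others.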
